A study of Caenorhabditis elegans with 46 samples.

Results

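The genes considered here encode subunits of the DRM complex itself. They are efl-1 and dpl-1 (E2F-DP), lin-35 (the pocket protein), and lin-9, lin-53, and lin-54 (MuvB), and they were chosen because the study's gene target table lists a DRM binding site for each. The 6 genes hold 7 sites, of 1418 DRM sites and 1762 target genes in all, since lin-9 has a site at its promoter and another at its termination site. The remaining MuvB genes, lin-37 and lin-52, have no site in that table. A DRM site is a 500 bp region that the authors built from the overlap of wild-type peaks of E2F-DP, LIN-35, and MuvB.

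DRM is the worm form of the DREAM complex, which holds cell cycle and developmental genes in a repressed state. E2F-DP is a heterodimer that reads E2F-type DNA sequences, and MuvB reaches DNA through LIN-54. The pocket protein connects E2F-DP to MuvB. A complex that binds the genes of its own subunits can in principle feed back on its own supply, and the binding data bear on the first step of such a loop, occupancy. The peak lists hold no transcript levels, and the study's transcript measurements were not analysed here.

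ChIP-seq was performed on late embryos of Caenorhabditis elegans, frozen after up to 3.5 hours of incubation. The 2 genotypes were wild type (WT; strain N2), from worms grown in liquid culture for 72 hours, and lin-35(n745), an early stop that removes the protein (lin-35 null), from worms grown for 96 hours. Antibodies against DPL-1 and EFL-1, and against LIN-54, LIN-52, LIN-37, and LIN-9 of MuvB, were used in both genotypes, with 3 lin-35 null samples for each subunit. WT had 3 samples for each of these subunits except LIN-37, which had 1 in this series and 2 earlier libraries in its list, and LIN-35 had 2. LIN-53 was not assayed. Of the 18 WT ChIP samples, 12 came from a protocol with gel size selection and 6 from the later protocol used for every lin-35 null sample. Genotype thus cannot be told apart from culture time at all, and cannot be fully told apart from protocol.

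The authors deposited 1 peak list for each subunit and genotype, made from all replicates of the subunit together, so the lists give no value for a single replicate, no replicate error is given, and no test was run. By the study's account, the second lin-35 null replicate had a higher ChIP signal than the others. The pooled lists could not be computed without it, so every lin-35 null value below includes it, and its part in them was not tested. Each peak carries a signal value, its height in the authors' peak caller. Signals of different lists have no common scale. A peak was therefore placed by its rank in its own list, with 1 the highest, and by its percentile, with the highest peak at 100. WT lists held 1771 to 2291 peaks and lin-35 null lists held 783 to 1674, so the same percentile is a different rank in the 2 genotypes. For comparisons between genotypes, sites were ranked anew among the DRM sites that had a peak of the subunit in both, which were 665 sites for EFL-1 and 986 for LIN-9, with the other subunits in between. Because these rankings differ in length, counts of places are not on the same scale for different subunits.

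In WT, all 7 subunits had a peak at all 7 sites, 49 of 49 site-by-subunit pairs. Because the sites were built from these peaks, that count is close to given, and 94.9% of all DRM sites had WT peaks of all 7 subunits. The heights set the sites apart. The median percentile over the 49 peaks was 83.6, beside 66.7 over all DRM sites. The efl-1 site stood highest and the lin-9 termination site lowest, and neither range overlapped that of any other member. The other 5 sites had ranges that overlapped one another, and they cannot be ordered beyond the spread between subunit lists.

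In lin-35 null embryos, 36 of 42 site-by-subunit pairs had a peak, or 85.7%, beside 58.9% over all DRM sites. Peaks of all 6 subunits were present at 5 of the 7 sites, the promoters of efl-1, lin-35, lin-9, lin-53, and lin-54. Over all DRM sites the share with all 6 was 40.6%. The members stood higher in WT than DRM sites at large, so the shares over all DRM sites are not matched for height. Among the 223 DRM sites with a mean WT percentile of 80 to 90, 73.5% had all 6. Of the 5 members in that band 4 did, which is near that share. By subunit, LIN-9 had a peak at 7 of the 7 sites (70.0% of all DRM sites), EFL-1 at 5 (46.9%), and DPL-1 at 6 (56.6%). LIN-37, LIN-52, and LIN-54 were at the same 6 sites each, 18 of 21 pairs, and over all DRM sites 60.1% of such pairs had a peak. The 6 missing peaks were 5 at dpl-1 and the EFL-1 peak at the lin-9 termination site. A missing peak is one that did not pass the authors' threshold, which does not show that the subunit was absent.

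**Figure D1:**
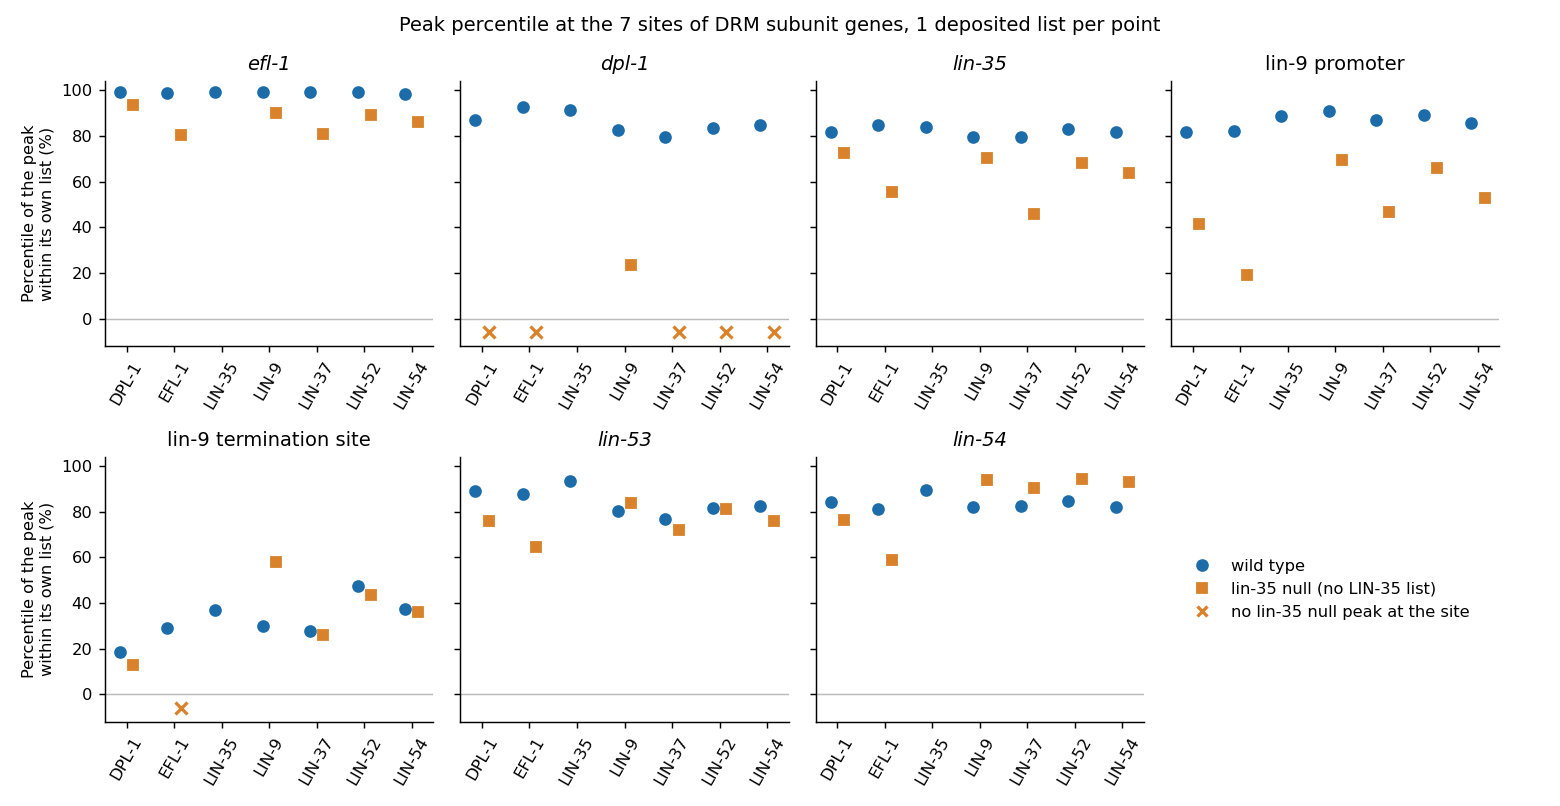
Percentile of the peak at each of the 7 sites within its own list (vertical axis, %, highest peak at 100), by subunit (horizontal axis), with 1 point per deposited list for wild type (circles) and lin-35 null (squares); crosses mark sites with no lin-35 null peak and carry no height. The efl-1 site is at 98.5 or more in every wild-type list, the dpl-1 site keeps 1 of 6 peaks in lin-35 null, and at lin-54 the MuvB points lie above their wild-type partners while those of DPL-1 and EFL-1 lie below.

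Among the E2F-DP genes, efl-1 encodes the E2F partner of the heterodimer. Its site lies in the promoter at chrV:16965574-16966073 (ce10). In WT its peak ranked 17th for DPL-1, 30th for EFL-1, 22nd for LIN-35, 35th for LIN-54, and 20th for each of LIN-9, LIN-52, and LIN-37. These ranks are percentiles of 98.5 to 99.2, and the signal was 21.3 to 30.6 times the median of its list. In lin-35 null the percentile was 93.7 for DPL-1, 80.6 for EFL-1, 89.8 for LIN-9, 89.2 for LIN-52, 81.0 for LIN-37, and 86.0 for LIN-54, with signal at 2.26 to 6.35 times the list median. The site thus stayed above percentile 80 in every lin-35 null list but below its WT place in each. Among the sites shared by both genotypes it stood 47 places farther from the top for DPL-1, at 64 after 17, and 128 to 157 places farther for the other 5 subunits. In WT it stood at 17 to 33 among these sites, so it had little room to rise. How many other top sites fell as far was not counted.

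The dpl-1 gene encodes the DP partner, which E2F proteins need for stable DNA binding. Its promoter site, at chrII:9169336-9169835, had WT percentiles of 87.1 for DPL-1, 92.5 for EFL-1, 91.1 for LIN-35, 82.4 for LIN-9, 83.6 for LIN-52, 79.4 for LIN-37, and 84.7 for LIN-54. In WT it was thus a site of about the same standing as the promoters of lin-35, lin-9, lin-53, and lin-54. In lin-35 null, LIN-9 alone had a peak there, at rank 1285 of 1674 and percentile 23.3. Its signal was 0.678 of the list median, and among the 986 shared LIN-9 sites it went from 352 to 877. The LIN-9 list is the longest of the lin-35 null lists. When the lowest 25% of every list was dropped, no lin-35 null peak remained at dpl-1.

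No other lin-35 null peak of the 5 missing subunits lay close by. The nearest were 7.70 kb away for LIN-52 and 61.0 kb away for LIN-54, at percentiles of 9.01 and 3.92, and 73.4 kb away for DPL-1, EFL-1, and LIN-37. The nearest other DRM site was itself 61.0 kb from dpl-1, so the larger distances partly restate the spacing of DRM sites. LIN-9 was the only lin-35 null subunit at 3.03% of all DRM sites. Since low WT sites often lack lin-35 null peaks, dpl-1 was also set beside the 223 sites whose mean WT percentile was 80 to 90, which include 5 of the 7 member sites. Of these 223, 73.5% had all 6 lin-35 null subunits and 8.07%, or 18 sites, had at most 1. The other 4 members in this band, lin-35, lin-9, lin-53, and lin-54, each had all 6.

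The lin-35 gene encodes the single pocket protein of the worm, the protein that the null lacks. Its site, at chrI:5807306-5807805, lies in a bidirectional promoter shared with vps-51, which encodes a subunit of a vesicle tethering complex, and the 2 gene starts are 417 bp apart. WT percentiles were 81.5 for DPL-1, 84.7 for EFL-1, 83.7 for LIN-35, 79.4 for LIN-9, 83.0 for LIN-52, 79.3 for LIN-37, and 81.8 for LIN-54, the narrowest range of the 5 middle sites. In lin-35 null they were 72.7 for DPL-1, 55.4 for EFL-1, 70.3 for LIN-9, 68.0 for LIN-52, 45.7 for LIN-37, and 63.8 for LIN-54. Among shared sites it stood 36 places nearer the top for DPL-1, and 41 places (LIN-54) to 91 places (LIN-37) farther from it for the other subunits. For every subunit this change in order was smaller than at the lin-9 promoter, described next.

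LIN-9 is a core component of MuvB. The lin-9 promoter site, at chrIII:8903932-8904431, had WT percentiles of 81.9 for DPL-1, 82.3 for EFL-1, 88.7 for LIN-35, 91.1 for LIN-9, 89.1 for LIN-52, 86.8 for LIN-37, and 85.5 for LIN-54. In lin-35 null they were 41.5 for DPL-1, 19.2 for EFL-1, 69.2 for LIN-9, 65.8 for LIN-52, 46.5 for LIN-37, and 53.0 for LIN-54. All 6 subunits had a peak, but the EFL-1 peak was among the lowest 25% of its list, and 4 members rather than 5 had all 6 when those peaks were dropped. Each subunit stood farther from the top of the shared sites, by 203 to 297 places. The change was 203 places among 728 sites for LIN-37, 256 among 665 for EFL-1, and 297 among 986 for LIN-9. These counts therefore do not order the subunits. Of the 5 members with all 6 lin-35 null peaks, lin-9 had the largest such change in this direction for every subunit. Over all shared sites, 53.7% for LIN-37 to 56.0% for DPL-1 stood nearer the top in lin-35 null. Falls as large as that of lin-9 were not counted among sites of like WT rank.

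The lin-9 termination site, at chrIII:8899552-8900051, is 4.38 kb from the promoter site and was the weakest member. Its WT percentiles were 18.7 for DPL-1, 28.9 for EFL-1, 36.9 for LIN-35, 29.7 for LIN-9, 47.3 for LIN-52, 27.8 for LIN-37, and 37.4 for LIN-54. In lin-35 null it kept 5 peaks, at 12.7 for DPL-1, 57.8 for LIN-9, 43.7 for LIN-52, 26.1 for LIN-37, and 35.8 for LIN-54. EFL-1 had none, and its nearest lin-35 null peak was 4.36 kb away, at the lin-9 promoter. Of the 286 DRM sites with a mean WT percentile under 40, 19.6% had lin-35 null peaks of at least 5 subunits. The ends of the gene changed places in opposite directions, since the termination site stood 53 to 276 places nearer the top of the shared sites in lin-35 null. In WT the termination site stood low among them, at 781 of 802 for DPL-1 and 895 of 986 for LIN-9. It thus had little room to fall, and how many other low sites rose as far was not counted.

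LIN-53 is the histone-binding RbAp48 homolog of MuvB and is shared with other chromatin complexes. Its gene has a site at chrI:9619736-9620235, in a bidirectional promoter with nra-2, which encodes a protein associated with nicotinic receptors. WT percentiles were 89.2 for DPL-1, 87.9 for EFL-1, and 93.6 for LIN-35, and for MuvB they were 80.4 for LIN-9, 81.7 for LIN-52, 76.9 for LIN-37, and 82.4 for LIN-54. E2F-DP and LIN-35 thus stood higher in their WT lists than any MuvB subunit did. The same held at dpl-1, and the share of all DRM sites with this order was not counted. In lin-35 null the percentiles were 76.0 for DPL-1, 64.4 for EFL-1, 83.6 for LIN-9, 81.3 for LIN-52, 72.0 for LIN-37, and 75.7 for LIN-54. Among shared sites, the MuvB subunits stood 81 to 145 places nearer the top, whereas DPL-1 and EFL-1 stood 51 and 46 places farther from it.

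The lin-54 gene encodes the DNA-binding subunit of MuvB. Its site, at chrIV:13240413-13240912, is shared with rpl-12, which encodes a protein of the large ribosomal subunit. WT percentiles were 84.2 for DPL-1, 81.2 for EFL-1, 89.5 for LIN-35, 81.8 for LIN-9, 84.4 for LIN-52, 82.5 for LIN-37, and 81.9 for LIN-54. In lin-35 null, MuvB stood at 93.7 for LIN-9, 94.2 for LIN-52, 90.3 for LIN-37, and 93.0 for LIN-54, and E2F-DP at 76.2 for DPL-1 and 59.0 for EFL-1. The MuvB ranges of the 2 genotypes did not overlap, with lin-35 null above WT, a pattern that no other member had.

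Among the shared sites, lin-54 went from 364 to 107 for LIN-9, from 325 to 91 for LIN-37, from 339 to 82 for LIN-52, and from 382 to 87 for LIN-54. For DPL-1 and EFL-1 it moved 24 places in the same direction. A higher rank is not a higher signal over the list. Relative to the list median, the LIN-9 signal was 6.09 in WT and 5.71 in lin-35 null, LIN-37 5.57 and 3.38, LIN-52 6.86 and 5.31, and LIN-54 6.87 and 4.90. LIN-52 also had a second, lower lin-35 null peak at this site, and the higher peak was used.

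The change at lin-54 was then set beside other DRM sites. Of 568 sites with peaks of all 6 subunits in both genotypes, 49.3% stood nearer the top in lin-35 null for all 4 MuvB subunits, as did lin-53 and lin-54. The share with at least 100 places for all 4 was 27.1%, and lin-54 was the only member among them. The mean rank change of MuvB was 237 places nearer the top than that of E2F-DP at lin-54 and 168 places nearer at lin-53. It was 17.5 places nearer at the lin-9 promoter, while at lin-35 and efl-1 the E2F-DP mean was nearer, by 48.8 and 57.2 places. The median over the 568 sites was 8.25 places nearer for MuvB, and 21.0% of them reached 100, among them lin-53 and lin-54. A gap of 100 places was therefore found at 119 of these 568 sites and was not a property of these genes alone. E2F-DP was ranked among 802 and 665 shared sites and MuvB among 728 to 986, so a place is not an equal step for both. The sizes of these gaps, and the share that reached 100, depend on this. They were not scaled to the length of the rankings.

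**Figure D2:**
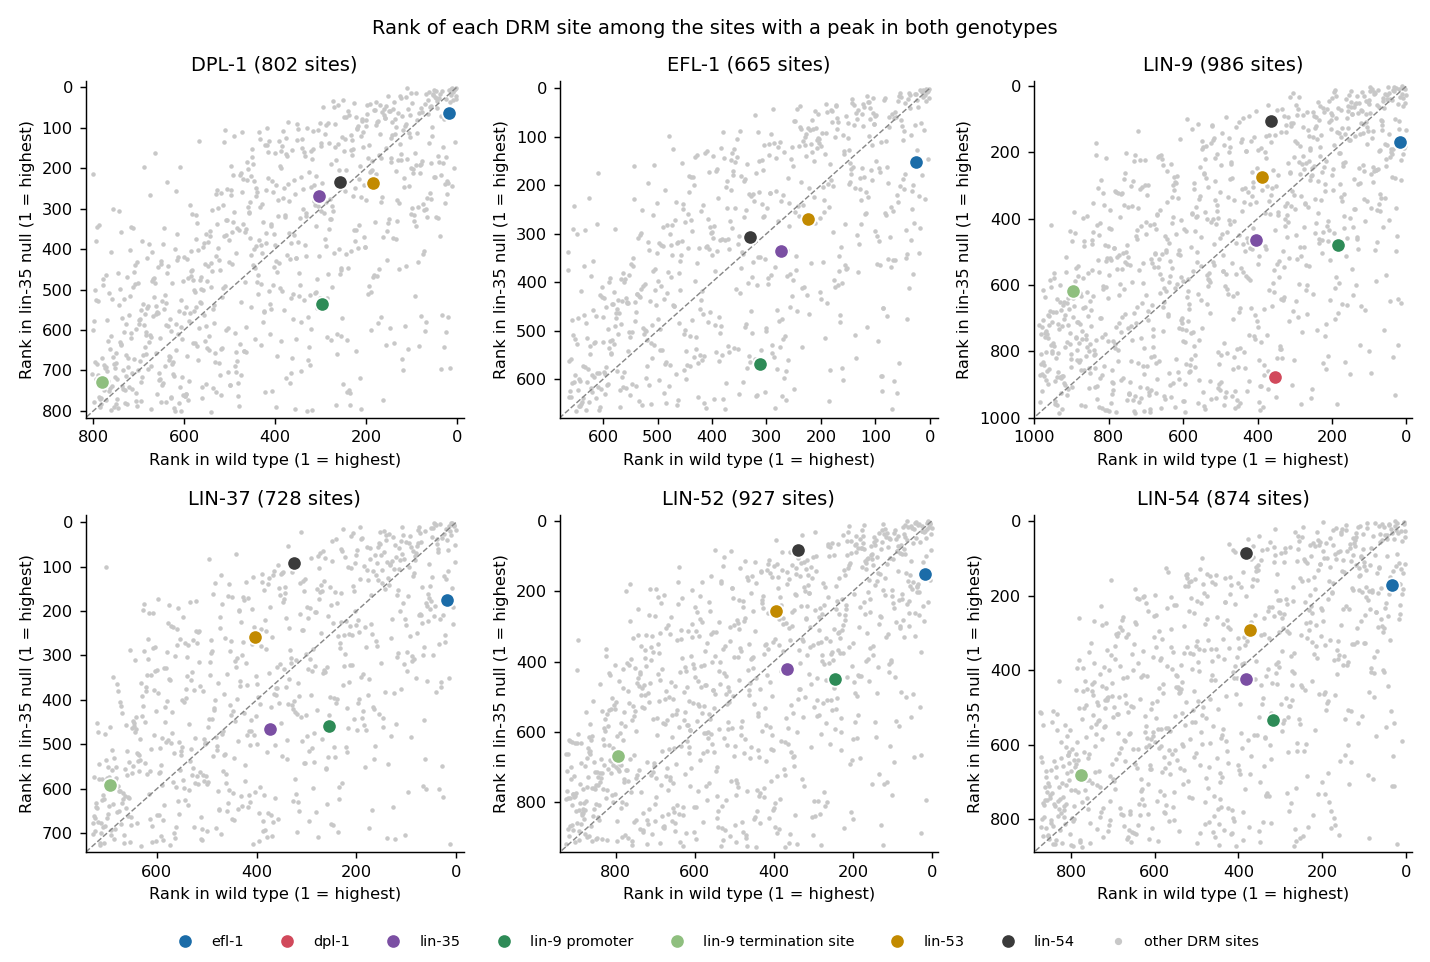
Rank of each DRM site among the sites with a peak of the subunit in both genotypes, wild type (horizontal axis) against lin-35 null (vertical axis), with rank 1 at the top right and the dashed line marking equal ranks; grey points are the other DRM sites and coloured points the members. The lin-54 site lies far above the line for the 4 MuvB subunits and near it for DPL-1 and EFL-1, and the lin-9 promoter and efl-1 lie below the line in every panel.

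The product of 5 of these genes was assayed in WT. A WT peak of it at its own gene is close to given by how the sites were built, and the heights are the measurement. EFL-1 stood at percentile 98.6 on efl-1, DPL-1 at 87.1 on dpl-1, LIN-35 at 83.7 on lin-35, LIN-9 at 91.1 on the lin-9 promoter, and LIN-54 at 81.9 on lin-54. In lin-35 null, 3 of the 4 products with a list had a peak on their own gene. Over all DRM sites the share with a peak was 46.9% for EFL-1, 56.6% for DPL-1, 70.0% for LIN-9, and 62.6% for LIN-54, so a count of 3 of 4 is near the background. EFL-1 was at 80.6 on efl-1, LIN-9 at 69.2 on the lin-9 promoter, and LIN-54 at 93.0 on lin-54, whereas DPL-1 had no peak on dpl-1. Both genes of the heterodimer are bound in WT, but in lin-35 null DPL-1 and EFL-1 peaks were found on efl-1 and not on dpl-1. Binding at dpl-1 too weak to pass the authors' peak threshold was not tested.

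Summit positions were compared next. In every list the summit is the middle of a peak of fixed width, from 290 bp to 630 bp. Within a site the 7 WT summits spanned 11 to 46 bp, narrowest at lin-53 and the lin-9 termination site and widest at the lin-9 promoter, beside a median of 21.5 bp over DRM sites with 7 WT peaks. Distances to gene starts rest on the study's gene target table. Of 26 genes with 2 or more distances in it, 17 pointed to 1 start within 20 bp, and the other 9 did not, so the distances to starts can be off by more than that.

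WT summits lay 19 to 65 bp upstream of the lin-9 start, 147 to 166 bp upstream of lin-35, 214 to 225 bp upstream of lin-53, and 378 to 395 bp upstream of lin-54. For efl-1 and dpl-1 the direction of the gene was not set, and the bounds for either direction were 126 to 154 bp and 304 to 340 bp. At lin-54 the same summits lay 5 to 22 bp from the rpl-12 start, and rpl-12 is thus the nearer gene in that table. At lin-53 the nra-2 start was 247 to 258 bp away, about as far as the lin-53 start. At lin-35 the vps-51 start was 251 to 270 bp away in WT.

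Between genotypes the summits of the members moved by a median of 9 bp over 36 pairs, and by 10 bp over 4982 pairs at all DRM sites. The lin-35 site was the exception among the members. Its lin-35 null summits lay at -31 bp from the WT summit for DPL-1, -23 bp for EFL-1, -43 bp for LIN-9, -42 bp for LIN-37, -40 bp for LIN-52, and -15 bp for LIN-54. All 6 moved the same way, away from lin-35 and toward vps-51. The summits were then 166 to 196 bp from the lin-35 start and 221 to 251 bp from the vps-51 start, so they still lay nearer to lin-35. The median of the 6 moves was 35.5 bp, whereas the other 4 members with all 6 lin-35 null peaks had medians of 2.5 to 6.5 bp. Moves of 30 bp or more occurred at 6.69% of the 568 sites with all 6 subunits in both genotypes, or 38 sites. The single pair at dpl-1, for LIN-9, differed by 24 bp, and those at the lin-9 termination site by a median of 9 bp.

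**Figure D3:**
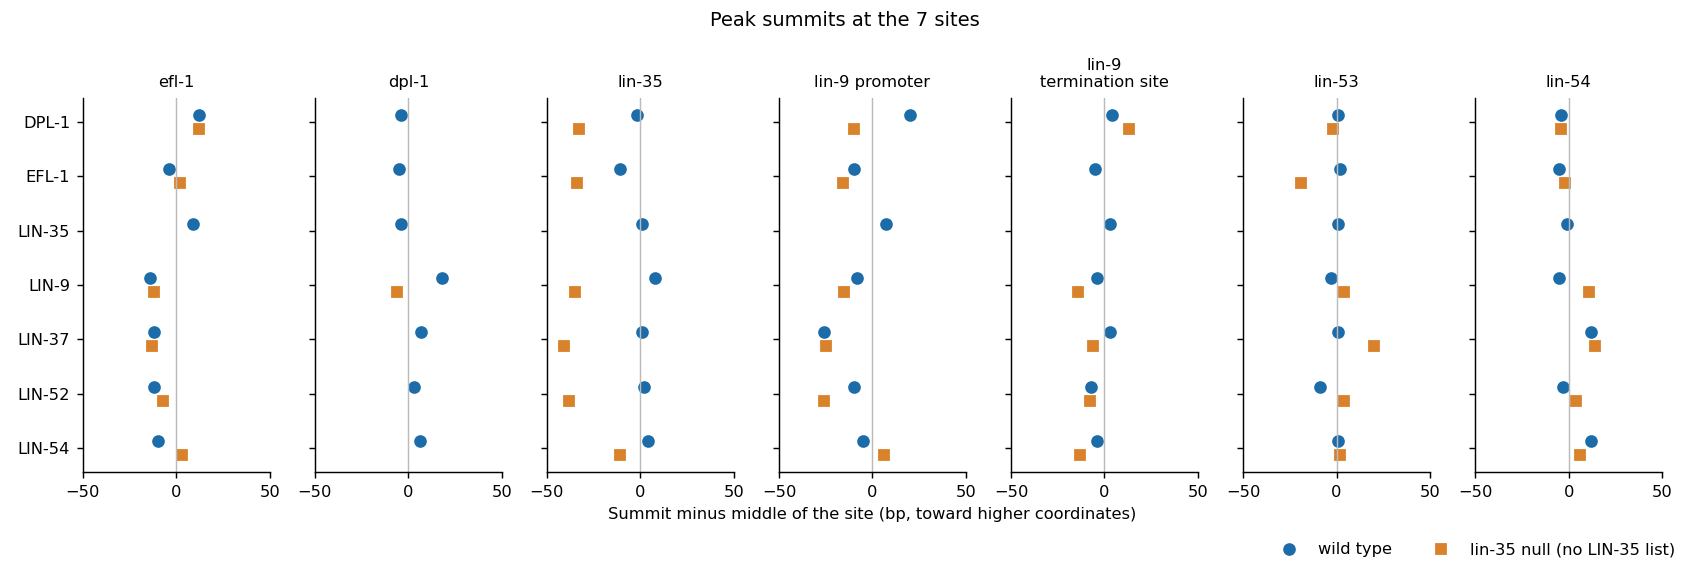
Summit position relative to the middle of the site (horizontal axis, bp, positive toward higher coordinates) for each subunit (vertical axis) at the 7 sites, in wild type (circles) and lin-35 null (squares), 1 point per deposited list. At lin-35 all 6 lin-35 null summits lie to the left of their wild-type partners, by 15 to 43 bp, and at the other 4 sites with all 6 lin-35 null peaks the 2 genotypes intermix.

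**Figure D4:**
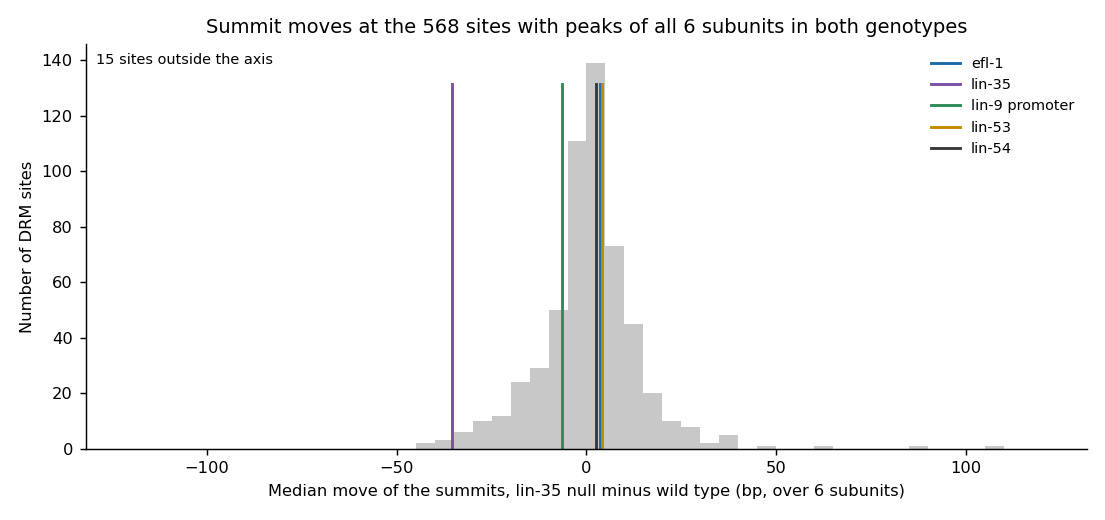
Median move of the summits over 6 subunits, lin-35 null minus wild type (horizontal axis, bp), for the 568 DRM sites with all 6 subunits in both genotypes (grey bars, 5 bp wide, number of sites on the vertical axis; 15 sites lie outside the axis). Coloured lines mark the 5 members: lin-35 lies 35.5 bp from 0 and the others within 6.5 bp.

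The sites also differed in what lay around them. No other DRM site lay within 20 kb of efl-1, dpl-1, or lin-35, and lin-53 and lin-54 had 2 others each, the nearest at 6.11 kb and 7.28 kb. How many of all DRM sites lie this far from another was not counted, and a link between spacing and lin-35 null peaks was not tested.

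Related genes were taken from a list of 20, of which 7 have a DRM site, beside 8.47% of 19983 protein-coding genes in RefSeq. The list was drawn up with earlier results of these data known. Of the 7 sites, 4 had lin-35 null peaks of all 6 subunits, beside the 40.6% of all DRM sites, a share not matched for WT height. These 4 had median WT percentiles of 75.0 to 95.0, and the others 27.4 to 43.1. None of the 2 other DRM genes and none of the 2 other E2F family genes, efl-2 and efl-3, has one. Of 10 further genes of the synMuv B class, which act with lin-35 in vulval development and somatic repression, 4 have a site. The site of lin-36, which encodes a THAP domain protein, had a median WT percentile of 95.0 with all 6 subunits also present in lin-35 null, and it stood 421 to 698 places farther from the top of the shared sites in lin-35 null. The site of lin-61, which encodes an MBT repeat protein, had a median WT percentile of 75.0 and stood 259 to 421 places nearer the top, also with all 6. The lin-13 site, at a WT median of 27.4, kept none, and that of mep-1, at 30.9, kept LIN-9 alone. Of 6 G1 regulators, 3 have a site. The site of the cyclin E gene (cye-1) had a WT median of 88.5 and stood 8 to 536 places farther from the top of the shared sites. That of its kinase, cdk-2, had a WT median of 76.3 and ranged from 133 places nearer to 128 places farther. Both had all 6 lin-35 null subunits. The CDK inhibitor cki-1, whose site is intergenic and had a WT median of 43.1, kept none. Among the shared sites, changes in both directions were thus also found in these genes.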

How the data were processed

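ChIP-seq peak lists of 7 DRM subunits in WT and 6 in lin-35 null late embryos were used, 13 in all. Per the labels and the methods, the authors aligned reads to ce10 with Bowtie 1.1.2 (at most 2 reported alignments), called peaks against input with SPP, and kept those passing a 1% IDR threshold over the replicates. The deposited column used is the SPP signal value. The lists carry no read counts, and the study's table of library metrics was not used here, so depth is not given. deepTools 2.0 coverage tracks, input libraries, and the 2 LIN-35 samples in lin-35 null were not analysed here.

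Peaks overlapping a site by at least 1 bp were joined to it, taking the highest per list. Ranks, percentiles, and summit distances were computed with Python 3.11.15 and plotted with matplotlib 3.10.9, and the steps were checked on simulated peaks. Site positions and gene distances came from the study's tables, and gene order, which set gene direction, from RefSeq WBcel235 (for lin-9, the side of its termination site). The genes named are the 6 members, genes sharing their sites, and genes with a site among 20 listed relatives. Members and lists were chosen with earlier results of these data known. Overlap, list length, site width, and percentile base were varied. Promoter sequence was not used here.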

Additional observations from a re-analysis of the deposited data

How the results depend on the processing

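Of 30 alternative values for 8 results, 26 stayed within 1.5 times the count or within the spread between subunit lists, and 4 did not. Some of the 26 could not differ by construction, as stated below. Leaving out the lowest 25% of each list took the lin-35 null peaks at dpl-1 from 1 to 0. Shortening each WT list to the length of its lin-35 null list took the median WT percentile of the members from 83.6 to 73.0, as the construction of a shorter list requires. The WT list of LIN-35, which has no lin-35 null list, was left whole. Taking percentiles over the peaks at DRM sites gave medians of 75.5 in WT and 59.9 in lin-35 null, after 83.6 and 69.8. Counts of lin-35 null peaks ran from 33 to 36, and WT peaks from 45 to 49. Leaving out the lowest 25% also removed the EFL-1 peak in lin-35 null at the lin-9 promoter, so sites with all 6 subunits went from 5 to 4. The median distance of WT summits to the gene start was 190 bp and the median move 9 bp, and both were unchanged with a 50% overlap and without the lowest 25%. The 190 bp falls in the gap between the lin-35 summits, which end at 166 bp, and the lin-53 summits, which begin at 214 bp. It is the distance of no single site. The middle of the peak is the summit in all 13 lists, so that alternative could not differ. The median distance was also 190 bp with dpl-1 and efl-1 added in either direction, an alternative added after seeing the data. The 7 efl-1 summits lie at 126 to 154 bp and the 7 dpl-1 summits at 304 to 340 bp, on opposite sides of 190 bp. That alternative could therefore not differ either. No paired analysis was possible because each list pools its replicates, and leaving out single replicates was not run for the same reason. Promoter motif counts need sequence and were not run.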
